A study of Homo sapiens with 15 samples.

Results

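Wild-type MYC, a MYC mutant that binds WDR5 poorly, and WDR5 itself were all found at 419 sites in HEK293 cells, a human embryonic kidney cell line. These sites are the peaks of wild-type MYC (WT-MYC) that shared at least 1 bp with a peak of the mutant (WBM-MYC) and at least 1 bp with a peak of WDR5. They make up 419 of the 2527 WT-MYC peaks, and 20388 peaks were deposited in all 3 lists. The sites were chosen by these overlaps, which are therefore not a finding.

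Chromatin immunoprecipitation followed by sequencing (ChIP-seq) was made from HEK293 cells transduced with a retrovirus encoding FLAG-tagged WT-MYC, with one encoding FLAG-tagged WBM-MYC, or with the empty vector. An anti-FLAG antibody (M2) was used on all of these. Untransduced HEK293 cells gave the WDR5 precipitates, made with an antibody to WDR5, and the control precipitates, made with rabbit IgG. Each of the 5 groups had 3 libraries, described as independent biological replicates. A single peak list per protein was analysed, 3 in all, with no value per library. No spread between replicates can therefore be given, and differences between classes of sites are descriptions without a test. Peaks of the vector and IgG libraries were not analysed here. The tagged MYC forms came from a retrovirus in cells that also have their own MYC, and the WDR5 precipitates came from untransduced cells, so joint presence of the 3 proteins on the same DNA molecule was not measured.

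MYC is a transcription factor that binds DNA as a dimer with MAX, at E-box motifs and widely at active promoters. It drives genes of growth, ribosome production and metabolism. WDR5 is a WD40-repeat scaffold of the MLL and SET1 histone H3 lysine 4 methyltransferase complexes and is found at active promoters, and a conserved segment of MYC contacts it directly. Sites that hold both MYC forms are those where a called peak was present although the contact of MYC with WDR5 was impaired. All coordinates are hg19, and gene assignments and DNA sequence were not analysed here.

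Of all 2527 WT-MYC peaks, 20.9% carried a WBM-MYC peak, 82.9% a WDR5 peak and 16.6% both. The 419 sites drew on 394 of the 690 WBM-MYC peaks (57.1%, exact 95% interval 53.3 to 60.8%) and on 440 of the 17171 WDR5 peaks (2.56%, 2.33 to 2.81%). Intervals here and below cover counting error over peaks only. Because neighbouring WT-MYC peaks can overlap each other, the 419 peaks merged into 387 separate regions, which together covered 192498 bp. The remaining WT-MYC peaks fall into 1677 with WDR5 but no WBM-MYC, 108 with WBM-MYC but no WDR5, and 323 with neither.

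Peaks of the 3 lists mostly covered the same stretch of DNA, which the choice of sites by overlap largely fixes. At 418 of 419 sites at least 1 base was common to peaks of all 3 lists. The exception was a WT-MYC peak at chromosome 2, 232328537 to 232329032. Its WBM-MYC peak covered the left side (232328330 to 232328785) and its WDR5 peak the right side (232328863 to 232329357). The WT-MYC centre lay inside the WBM-MYC peak at 395 sites (94.3%) and inside the WDR5 peak at 386 sites (92.1%), and the WBM-MYC centre lay inside the WDR5 peak at 390 sites (93.1%). The median overlap was 431 bp with WBM-MYC and 435 bp with WDR5. For scale, the commonest width was 496 bp in the WT-MYC list and 456 bp in the WBM-MYC list.

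**Figure D1:**
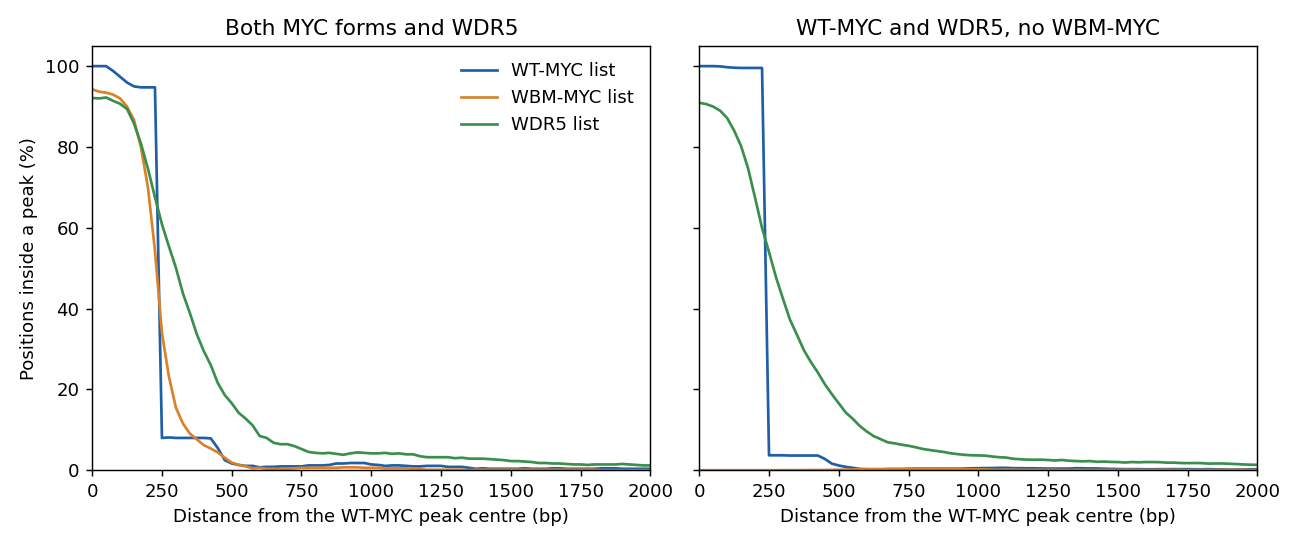
Share of positions (y, percent) that lay inside a peak of each list, by distance from the WT-MYC peak centre on either side (x, bp), at the 419 sites with both MYC forms and WDR5 (left) and at the 1677 WT-MYC peaks with WDR5 but no WBM-MYC (right). At the centre itself WDR5 peaks covered 92.1% of the sites with both MYC forms and 90.9% of those without WBM-MYC, and at 400 bp 29.5% of positions with both and 26.8% without WBM-MYC.

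WDR5 peaks reached farther out than the MYC peaks, and somewhat farther at these sites than where WBM-MYC was missing. At 250 bp from the WT-MYC centre a WDR5 peak covered 60.9% of positions at sites with both MYC forms, against 54.0% at WT-MYC and WDR5 sites without WBM-MYC. At 600 bp the order was the other way, at 8.47% against 9.60%. The fixed width of MYC peaks sets the steep edge of the WT-MYC curve.

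The centres of the MYC forms lay closer to each other than either lay to the WDR5 centre. The median distance from the WT-MYC to the WBM-MYC centre was 40 bp (interquartile range 14 to 82 bp, n = 419 sites). From the WT-MYC to the WDR5 centre it was 78.5 bp (26 to 142.5 bp), and from the WBM-MYC to the WDR5 centre 81.5 bp (36.8 to 149.8 bp). Both MYC forms were thus about equally far from WDR5: the WT-MYC centre was the closer one at 217 sites (51.8%, 46.9 to 56.7%), the WBM-MYC centre at 195 (46.5%, 41.7 to 51.4%), and at 7 they were level. At 336 sites (80.2%) both MYC centres lay on the same side of the WDR5 centre, and at 82 (19.6%) on opposite sides. The WDR5 partner was chosen as the one nearest to the WT-MYC centre, which favours short WT-MYC distances.

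**Figure D2:**
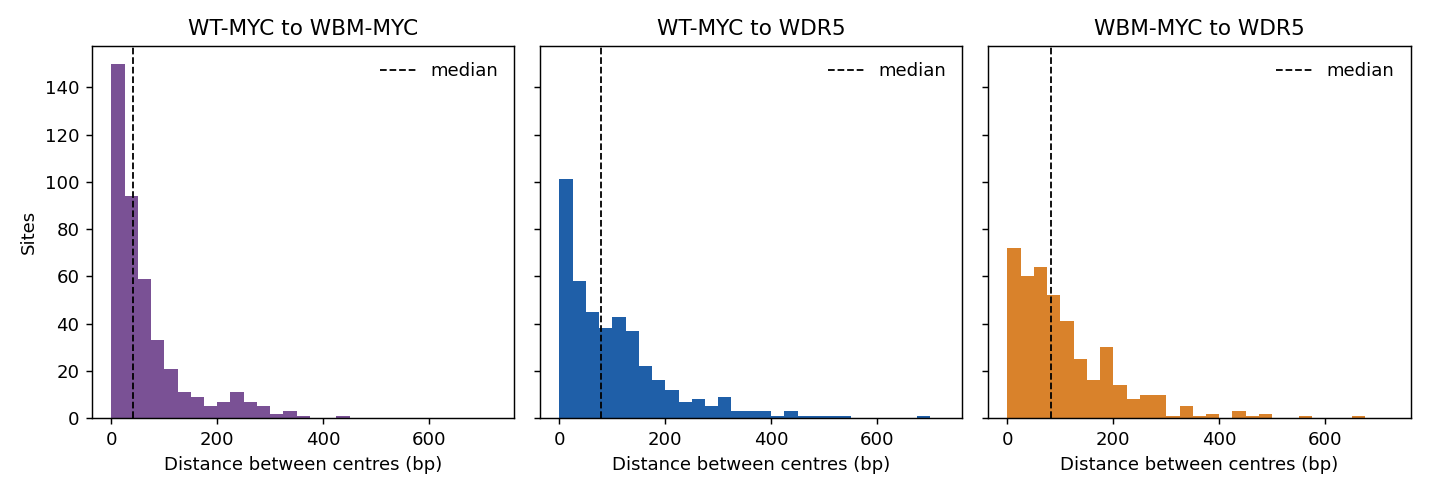
Number of the 419 sites (y) by distance between peak centres (x, bp, in steps of 25 bp), for WT-MYC to WBM-MYC (left), WT-MYC to WDR5 (middle) and WBM-MYC to WDR5 (right), with dashed lines at the medians of 40, 78.5 and 81.5 bp. Distances between the MYC forms crowd near 0, with a small second group beyond 200 bp.

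All 3 centres fell within 50 bp of each other at 91 sites (21.7%) and within 100 bp at 188 (44.9%), and they were spread over more than 250 bp at 64 (15.3%). The tightest site was at chromosome 12, 53895000 to 53895495, where the WT-MYC and WBM-MYC centres coincided and the WDR5 centre lay 1.5 bp away. Next came chromosome 1, 38325240 to 38325735, with a span of 3.5 bp, and chromosome 10, 88726242 to 88726737, with 5 bp. Sites on chromosome 5 (134209856 to 134210351, 6 bp) and chromosome 7 (30544138 to 30544633, 7.5 bp) followed. These 5 sites were not at one end of the lists, with mean positions over the 3 lists between 7.32 and 57.3%, where 0 is the first line and 100 the last.

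Of the 5 most spread sites, some lay on broad WDR5 peaks, 2 of them on the same one. A pair of overlapping WT-MYC peaks on chromosome 1, at 936052 to 936547 and 936251 to 936746, shared 1 WBM-MYC peak (936022 to 936477) and 1 WDR5 peak of 1268 bp (935172 to 936439). Their centres spanned 494 and 693 bp. At chromosome 6, 160148514 to 160149009, the WDR5 peak was 1305 bp wide and the centres spanned 665.5 bp. The other 2 of these 5 sites had WDR5 peaks of ordinary width beside the MYC peaks: the one on chromosome 2 without a common base, at 552.5 bp, and one on chromosome 5 (32173632 to 32174127) at 547.5 bp, where WDR5 overlapped WT-MYC by only 31 bp.

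That 31 bp was also the shortest WDR5 overlap of any site. The next shortest were 40 bp at chromosome 17 (47074583 to 47074734) and 61 bp at chromosome 6 (99395117 to 99395612). For WBM-MYC the shortest overlap was 48 bp, at chromosome 6, 144537245 to 144537740, followed by 103 bp at chromosome 13 (76123648 to 76124143) and 123 bp at chromosome 17 (49230776 to 49231057). Just outside the rule, the WT-MYC peak at chromosome 6, 144537444 to 144537939, had WDR5 but ended up 151 bp from a WBM-MYC peak. It overlaps the site with the 48 bp overlap, so the rule divided a single locus there. On chromosome 1 a WT-MYC peak at 113498250 to 113498745 missed WBM-MYC by 30 bp, and on chromosome 4 one at 83350647 to 83351142 missed it by 226 bp.

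Few peaks came that close. Of the 1677 WT-MYC peaks with WDR5 alone, 14 had a WBM-MYC peak within 1000 bp (0.835%). Of the 108 with WBM-MYC alone, 9 had a WDR5 peak within 1000 bp (8.33%), the nearest being 10 bp away on chromosome 1 (230562204 to 230562699), 11 bp away on chromosome 12 (131356858 to 131357353) and 34 bp away on chromosome 2 (232328333 to 232328828). The last of these overlaps the chromosome 2 site without a common base. The WDR5 list holds 17171 peaks and the WBM-MYC list 690, so the shares of near misses cannot be compared directly.

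The distance between the MYC forms was shorter where WDR5 was missing. It had a median of 40 bp at the 419 sites (exact 95% interval of the median 33 to 45 bp) and of 13 bp at the 108 sites with both MYC forms but no WDR5 (10 to 22 bp). When WT-MYC peaks were divided into quartiles by their line, the first quartile gave 32 bp with WDR5 (26 to 41 bp, 235 sites) and 8 bp without it (7 to 13 bp, 55 sites). In the later quartiles the intervals overlapped. The second gave 42.5 bp with WDR5 (30 to 56 bp) and 33 bp without it (13 to 42 bp), the third 60.5 bp (30 to 101 bp) and 27 bp (11 to 97 bp), and the last 89 bp (43 to 122 bp) and 13.5 bp (2 to 102 bp), with only 16 and 6 sites without WDR5 in these last quartiles. A stretch at the end of chromosome 9 (135906641 to 140635243) contains 3 WDR5 peaks beside 46 of WT-MYC. It was drawn around gaps between WDR5 peaks, which leaves few places where such sites could lie, and it held none of the 419. It begins just after the WDR5 peak of the last of them on that chromosome. Without it the medians were 40 and 12 bp. With WT-MYC peaks of the commonest width alone they were 41.5 and 14 bp. The difference was not tested, because the lists hold no replicates.

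Distances to WDR5 had overlapping intervals with and without the mutant. The WT-MYC centre lay a median of 78.5 bp from the WDR5 centre at the 419 sites (66 to 93 bp) and 69 bp from it at WT-MYC and WDR5 sites without WBM-MYC (65 to 76 bp). Along the WT-MYC list both medians at the 419 sites lengthened, weakly so for WDR5. Spearman's rho with the WT-MYC line was 0.25 for the distance to WBM-MYC and 0.11 for that to WDR5. From the first to the last quartile the WT-MYC to WBM-MYC median was 32, 42.5, 60.5 and 89 bp, and the WT-MYC to WDR5 median 71.5, 78.3, 93.5 and 116.3 bp. The exact intervals of the WT-MYC to WDR5 median overlapped between all quartiles, with 53.5 to 91 bp in the first and 67.5 to 141.5 bp in the last. Some late sites were the second peak of an overlapping pair, measured to a shared partner. At sites without WBM-MYC the WT-MYC to WDR5 medians were 63.8, 64.3, 72 and 81.8 bp over the same quartiles.

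Some loci carried more than 1 peak of a list. At 57 sites (13.6%, 10.5 to 17.3%) the WT-MYC peak touched more than 1 WDR5 peak, against 16.9% (15.1 to 18.8%) at WT-MYC and WDR5 sites without WBM-MYC. At 47 of these 57 the outer WDR5 peaks abutted or overlapped, and at the other 10 a median of 24 bp separated them. Some of the 47 had WDR5 entries with the same start and nearly the same end. On chromosome 21, for example, 1 entry ran from 46359534 to 46360183 and another from 46359534 to 46360188. The counts here include such entries. The WT-MYC centre fell between the outer WDR5 centres at 33 of the 57 and the WBM-MYC centre at 28. A second WBM-MYC peak was present at 13 sites (3.10%).

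Overlapping WT-MYC peaks were more frequent at these sites than at WT-MYC peaks with WDR5 alone. Of the 419, 66 overlapped another WT-MYC peak (15.8%, 12.4 to 19.6%), against 123 of the 1677 with WDR5 alone (7.33%, 6.13 to 8.69%) and 8.11% of all WT-MYC peaks. With WBM-MYC alone it was 11 of 108 (10.2%, 5.20 to 17.5%), an interval that overlaps that of the 419 sites. With neither it was 5 of 323 (1.55%, 0.504 to 3.58%). A peak that overlaps another gives its neighbour the same trait, so these shares can count a locus more than once. Their intervals treat peaks as separate and are likely too narrow. Linking sites at most 50 kb apart gave 377 groups, of which 337 were single sites, 38 pairs and 2 triples. Of the pairs, 31 spanned under 1 kb, with starts 49 to 332 bp apart, and 22 of those 31 lay on 1 WBM-MYC peak and 1 WDR5 peak. Such pairs count as 2 sites in the total. They also bear on the distances: of the 37 sites whose MYC centres were more than 200 bp apart, 19 overlapped another WT-MYC peak (51.4%), against 47 of the 382 others (12.3%).

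The triples lay on chromosome 16, from 30816686 to 30826023, and on chromosome 1, from 45986958 to 46016733. On chromosome 16 a close pair shared 1 WBM-MYC and 1 WDR5 peak, and a single site followed at 30825528 to 30826023, where the MYC centres were 9 bp apart. On chromosome 1 a close pair late in the WT-MYC list, at lines 2177 and 2490, came before a single site at line 57 whose MYC centres were 1 bp apart.

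Across wider distances the sites were scattered. The median distance to the next of the 419 on the same chromosome was 711191 bp (interquartile range 90056 to 2371120 bp), 106 had one within 100 kb and 179 had their nearest more than 1 Mb away. Chromosome 18 held a single site. Another WT-MYC peak lay within 100 kb of 54.9% of the sites (49.99 to 59.7%), against 42.8% (40.4 to 45.2%) of WT-MYC peaks with WDR5 alone. The share was 62.0% (52.2 to 71.2%) with WBM-MYC alone, 50.2% (44.6 to 55.7%) with neither and 46.6% over all WT-MYC peaks. These counts include WT-MYC peaks that overlap the site itself. Within 10 kb the share was 23.4% at the 419 sites, 13.3% with WDR5 alone, 16.7% with WBM-MYC alone and 12.1% with neither. A gap to the peaks with WDR5 alone was therefore already present within 10 kb. A median of 4 WDR5 peaks lay within 100 kb of the 419 sites, of the WT-MYC peaks with WDR5 alone and of all WT-MYC peaks. The median was 2 with WBM-MYC alone and 2 with neither. These counts include the WDR5 peak for which the 419 sites and the peaks with WDR5 alone were chosen.

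The sites stood early in the WT-MYC and WDR5 lists and near the middle of the WBM-MYC list. No source used here says how the lists are ordered and they carry no score, so file order is a description of position and not a measured strength. The median line was 518 of 2527 in the WT-MYC list for the 419 sites, against 1399 for WT-MYC peaks with WDR5 alone, 593.5 for those with WBM-MYC alone and 1679 for those with neither. In the WDR5 list the median line was 2136 of 17171 at the 419 sites and 4055 at WT-MYC and WDR5 sites without WBM-MYC. In the WBM-MYC list it was 312 of 690 at the 419 sites, which is 45.2% of the way through (exact interval 40.6 to 50.7%), against 198.5 at the sites with both MYC forms but no WDR5.

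**Figure D3:**
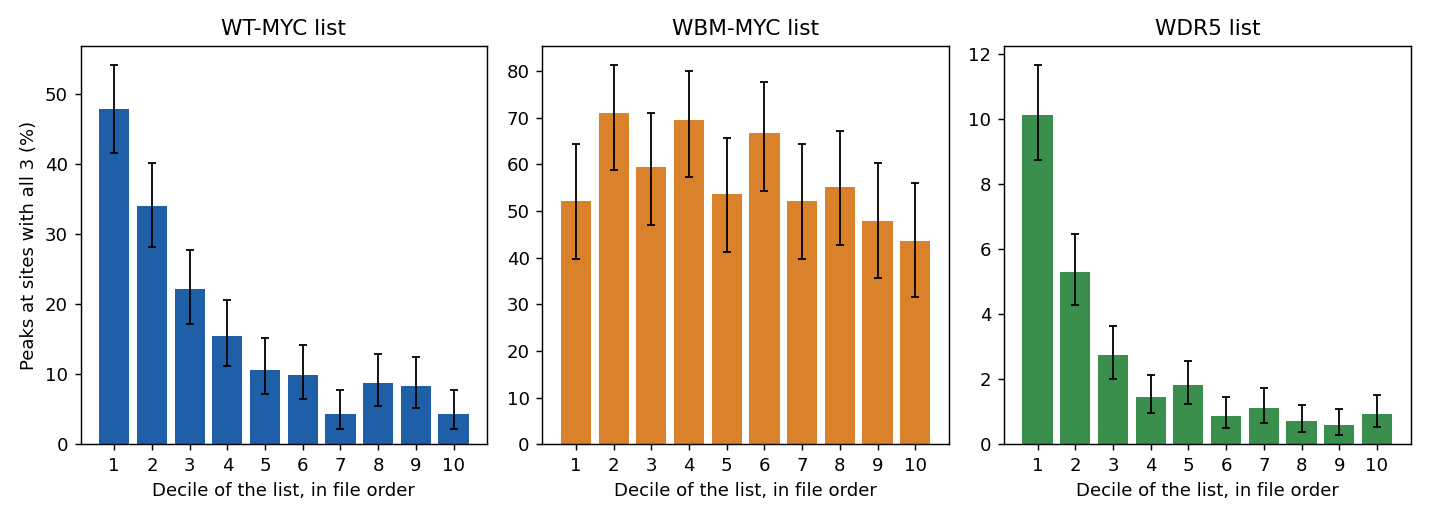
Share of the peaks of each list (y, percent) that belong to a site with both MYC forms and WDR5, by decile of the list in file order (x), for WT-MYC (left), WBM-MYC (middle) and WDR5 (right). Bars are shares and lines exact 95% intervals. The share was 47.8% in the first WT-MYC decile and 4.37% in the last, 52.2 and 43.5% for WBM-MYC, and 10.1 and 0.932% for WDR5.

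The fall along the list was steep for WT-MYC and WDR5 and slight for WBM-MYC. In the WT-MYC list 121 of the first 253 peaks were such sites (47.8%, 41.5 to 54.2%), and 11 of the last 252 (4.37%, 2.20 to 7.68%). Among WT-MYC peaks that had WDR5, the share with WBM-MYC too was 59.9% in the first decile and 5.53% in the last. In the WDR5 list the share was 10.1% (8.74 to 11.7%) in the first decile, 5.30% in the second, 2.74% in the third and between 0.582 and 1.81% afterwards. In the WBM-MYC list it varied between 43.5 and 71.0%, with the highest value in the second decile (58.8 to 81.3%). The first WBM-MYC decile, at 52.2% (39.8 to 64.4%), was below the second.

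A site's line in the WDR5 list bore little relation to its line in either MYC list. Over the 419 sites Spearman's rho was 0.35 between lines of the WT-MYC and WBM-MYC lists, 0.08 between WT-MYC and WDR5, and 0.03 between WBM-MYC and WDR5. These are descriptions across sites, some of which share a partner peak. In the first decile of all 3 lists stood 14 of the 419. For scale, 121 stood in the first decile of the WT-MYC list and 186 had their WDR5 peak in that of the WDR5 list. The first WBM-MYC decile held 36 peaks at such sites, which limits the joint count.

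The 10 sites with the earliest mean position lay on 7 chromosomes. The first was at chromosome 21, 40685587 to 40685852, on line 7 of the WT-MYC list, line 7 of the WBM-MYC list and line 280 of the WDR5 list, with centres spanning 68.5 bp. The second, at chromosome 7, 4681560 to 4681886, was on lines 3, 14 and 265. The third, at chromosome 5, 154134395 to 154134656, was on lines 10, 11 and 551, and its MYC centres coincided. The first 3 had a very early place among MYC peaks and a place in the first decile of WDR5 peaks, which choosing by mean position favours.

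The next sites by mean position were at chromosome 19 (42364210 to 42364705), chromosome 6 (114292605 to 114292764) and chromosome 19 (45582341 to 45582582). They were followed by chromosome 6 (146056173 to 146056668 and 144164385 to 144164880), chromosome 11 (62623322 to 62623817) and chromosome 1 (180471602 to 180472097). The WDR5 peaks of the 10 sites were 459 to 1244 bp wide, the widest at chromosome 6, 146055748 to 146056991. At the far end, the site with the latest mean position was at chromosome 17, 36862239 to 36862734, on line 2269 of the WT-MYC list, line 422 of the WBM-MYC list and line 17121 of the WDR5 list.

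Short WT-MYC peaks were rare in all classes, and rarest where WDR5 was present without WBM-MYC. Only 53 WT-MYC peaks were narrower than 496 bp, and 23 of them were among the 419 sites (5.49%, 3.51 to 8.12% of the sites), against 8 among the 1677 with WDR5 alone (0.477%, 0.206 to 0.938%). They made up 4.63% (1.52 to 10.5%) of the peaks with WBM-MYC alone, 5.26% (3.10 to 8.29%) of those with neither and 2.10% of all WT-MYC peaks. The 23 were 124 to 327 bp wide and all stood within the first 292 lines, which held 141 of the 419 sites. Their centres were close, with medians of 20.5 bp to WBM-MYC and 45 bp to WDR5. A shorter peak must lie nearer to a partner to overlap it, and all 23 stood early in the list. Over the 235 sites of the first WT-MYC quartile the medians were 32 and 71.5 bp.

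WDR5 peaks were wider at these sites, and width also varied along the WDR5 list. The median width was 578 bp at the 419 sites (exact 95% interval of the median 542 to 602 bp), 475 bp at WT-MYC and WDR5 sites without WBM-MYC (462 to 488 bp) and 408 bp over the 14697 WDR5 peaks without MYC of either form. Within the first WDR5 decile, which held 186 of the 419 sites, the medians were 637 bp at the sites with both MYC forms, 630 bp without WBM-MYC and 514 bp without MYC. In the second decile they were 518, 486 and 444 bp in the same order, and in the third 443.5, 437 and 409 bp. The median at the 419 sites was down to 358 bp in the seventh decile. In the last 3 it was 572, 624 and 624 bp, where WDR5 peaks without MYC stood at 370, 624 and 624 bp. Median width therefore did not run one way along the list. The commonest width in the WDR5 list was 624 bp, so the medians of 624 bp lie on that repeated value.

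**Figure D4:**
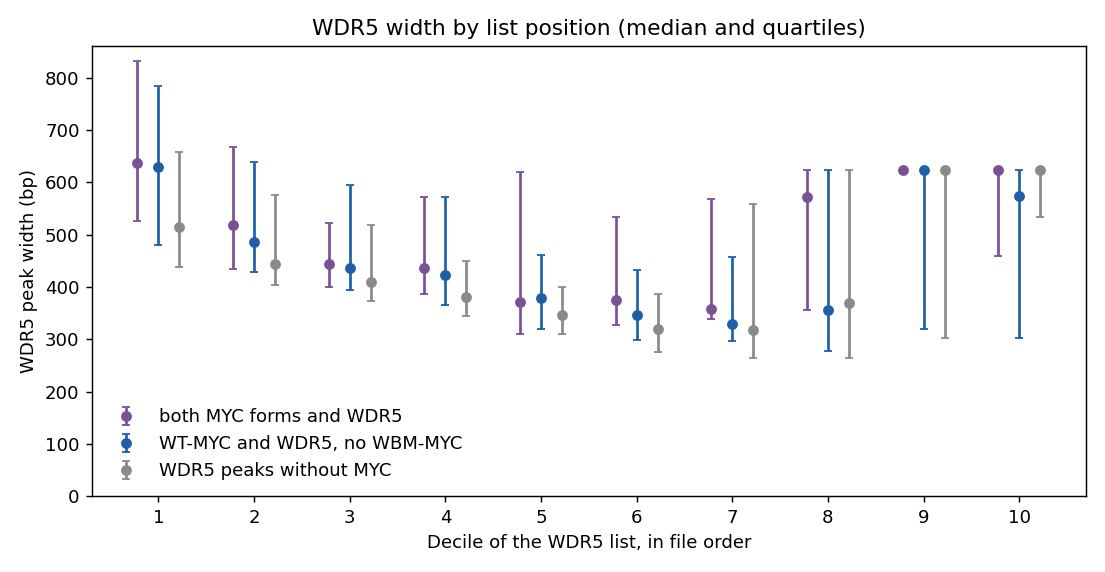
Width of WDR5 peaks (y, bp; points are medians and lines quartiles) by decile of the WDR5 list in file order (x), at sites with both MYC forms and WDR5, at WT-MYC and WDR5 sites without WBM-MYC, and over WDR5 peaks without MYC. In the first decile the medians are 637, 630 and 514 bp.

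Within deciles the 2 classes of WT-MYC sites therefore lay closer together than their pooled medians of 578 and 475 bp, except where few sites were left. The median was larger at the 419 sites in 8 of 10 deciles, smaller in 1 and equal in 1, but the last 5 deciles held only 7 to 15 sites each. How much of the pooled difference comes with list position was not tested.

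Along the genome the sites followed WT-MYC peaks with some unevenness. Over all chromosomes 16.6% of WT-MYC peaks carried both partners. Among the chromosomes with at least 20 WT-MYC peaks, the share was highest on chromosome 21, at 12 of 40 (30%, 16.6 to 46.5%), and lowest on chromosome 14, at 5 of 60 (8.33%, 2.76 to 18.4%). Chromosomes 13 (25.9%), 5 (24.5%), 1 (22.8%) and 6 (21.5%) came after chromosome 21. Chromosome 1 alone held 82 of the 419 sites (19.6% of them, against 14.2% of all WT-MYC peaks). Intervals of neighbours in this order overlap widely.

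**Figure D5:**
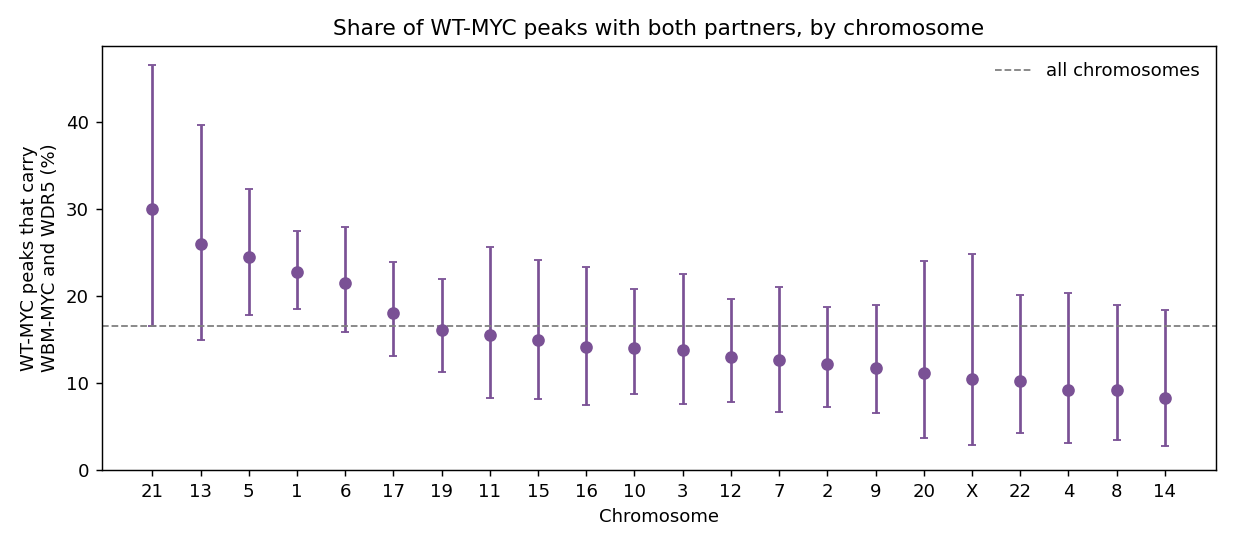
Share of WT-MYC peaks that carry WBM-MYC and WDR5 (y, percent) by chromosome (x, from the highest share to the lowest), for chromosomes with at least 20 WT-MYC peaks. Points are shares, lines exact 95% intervals and the dashed line the 16.6% over all chromosomes. The share runs between 30% on chromosome 21 and 8.33% on chromosome 14, with wide intervals.

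On chromosome 9 a large part of the WT-MYC peaks with WBM-MYC lacked WDR5. There 35 of 119 WT-MYC peaks carried WBM-MYC (29.4%) and 58 carried WDR5 (48.7%), and 14 carried both (11.8%, 6.58 to 18.95%). Among the WT-MYC peaks of chromosome 9 that had WDR5, 24.1% also had WBM-MYC. Most of its WT-MYC peaks with WBM-MYC alone lay in the stretch at its end described above, from 135906641 to 140635243. Over all chromosomes there were 108 WT-MYC peaks with WBM-MYC alone, and 91 without that stretch. On chromosome 21, by contrast, all 12 WT-MYC peaks with WBM-MYC also had WDR5, and 38 of its 40 WT-MYC peaks had WDR5.

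Chromosome 6 had its sites mostly on one side. With each chromosome divided at its longest stretch without a WDR5 peak, 17 chromosomes had at least 15 WT-MYC peaks on each side, and only on chromosome 6 did the exact intervals of the sides not overlap. The division was chosen after the data were seen. Chromosome 6 held 39 sites among 143 WT-MYC peaks beyond that stretch (27.3%, 20.2 to 35.3%), which runs from 57.2 to 64.3 Mb, and 2 among 48 before it (4.17%, 0.509 to 14.3%). WDR5 was called at 82.5% of the WT-MYC peaks beyond it and at 95.8% of those before it, so the lower count before it came with fewer WBM-MYC peaks, 47 WT-MYC peaks with one beyond and 2 before. Chromosome 7, also picked after its values were seen, ran the other way with overlapping intervals, with 3 of 58 beyond its stretch (5.17%, 1.08 to 14.4%) and 9 of 37 before it (24.3%, 11.8 to 41.2%).

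In bins of 10 Mb that held at least 15 WT-MYC peaks, of which there were 52, the median share was 13.4%. It was highest at chromosome 21 from 40 to 50 Mb, with 10 sites among 18 WT-MYC peaks (55.6%, 30.8 to 78.5%). Next were chromosome 6 from 140 to 150 Mb, with 8 of 16 (50%, 24.7 to 75.3%), and chromosome 13 from 70 to 80 Mb, with 8 of 17 (47.1%, 23.0 to 72.2%). At the low end were chromosome 9 from 140 to 150 Mb, with 0 of 17 (exact interval 0 to 19.5%), and chromosome 19 from 30 to 40 Mb, with 1 of 22 (4.55%, 0.115 to 22.8%). In the chromosome 19 bin 19 of the 22 WT-MYC peaks had WDR5 and 2 had WBM-MYC, whereas in the chromosome 9 bin 2 of 17 had WDR5 and 9 had WBM-MYC. The chromosome 9 bin takes in the last part of the stretch at the end of that chromosome.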

How the data were processed

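Peaks were read from the 3 lists the authors deposited, which give chromosome, start and end in bp with no score, name or header (start counted from 0, reported from 1). The submitters' processing notes name the build hg19 and the tools CASAVA 1.8.2, for base calling, and Bowtie 0.12.7, an aligner of short reads. Steps of peak calling, use of control libraries and any pooling of replicates were not given in the sources used here. Read depth is unknown.

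Groups came from the labels. A partner shared at least 1 bp. Where several overlapped, the one with the nearest centre was used. Shares have exact (Clopper-Pearson) and medians exact order-statistic 95% intervals. Deciles and quartiles follow file order. Python 3.11.15, pandas 2.3.3, NumPy 2.4.6 and SciPy 1.17.1 were used. The overlap code was tested on simulated data, and bedtools 2.31.1 gave the same count of 419.

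Sites named by position are the 10 with the earliest mean position, the 5 tightest and 5 most spread, 3 on either side of each overlap limit, the leading groups by 50 kb linkage, and the chromosomes with the highest and lowest share. The latest site, the site without a common base, the 10 Mb bins and the chromosome divisions were added after values were seen. The sites and lists were chosen with earlier results of these data known. The available gene and promoter tables are GRCh38, so promoter and E-box shares were not run.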

Additional observations from a re-analysis of the deposited data

How the results depend on the processing

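The number of sites, the medians of the 3 centre distances, of WDR5 width and of list position, the shares over all chromosomes and on chromosomes 21 and 14, and the neighbour share were recomputed under other overlap rules, list subsets and windows. Of these values, 74 stayed within the interval of the reported value (for the count of sites, within 1.5 times of it) and 9 moved. Some of the 74 could not move, so that count overstates how far stability was tested. The stretch at the end of chromosome 9 held none of the sites. Leaving it out changed only the share over all chromosomes, to 16.9%, and left the other values as reported by construction. Keeping autosomes alone likewise cannot change the shares on chromosomes 21 and 14. Using the first 50% of each list left 175 sites and median positions of 11.8% in the WT-MYC list, 23.5% in the WBM-MYC list and 9.25% in the WDR5 list, as fewer peaks and earlier lines fix by construction. The share was then 13.9%, and the cause was not tested. An overlap of at least 50% of the shorter peak gave a share of 14.9%. Merging overlapping neighbours within each list, which widens peaks, gave a median WDR5 width of 604 bp. The share of sites with another WT-MYC peak nearby was 41.1% within 50 kb and 23.4% within 10 kb, as smaller windows must give. The promoter and E-box results were not run. No paired analysis was possible because each group has 1 list with no values per replicate, and for the same reason no replicate could be left out. Without reads, depth cannot be set against any count, and a site absent from a list may have been bound below its threshold.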
